A study of Mus musculus with 12 samples.

Results

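Induced stratified epithelial progenitor cells (iSEPs) are epithelial cells made from mouse mesenchymal cells. The 6 iSEP libraries were set against the 6 libraries of the natural cell types at either end of that conversion, which are the stromal source and primary keratinocytes. A gene was taken when its 6 iSEP values all lay above, or all lay below, the 6 values of the natural cells. Of 12364 genes with at least 1 FPKM (fragments per kilobase of transcript, scaled to library depth) in at least 3 of the 12 libraries, 627 met this rule (5.07%). In 350 the iSEPs were higher (2.83% of genes kept) and in 277 they were lower (2.24%). All other genes overlapped between the 2 kinds of cell.

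The 4 groups hold 3 cultures each, and per the labels the same 3 animals gave every group. All cells carried Pdgfra-creERxLSL-tdTomato, in which tamoxifen-inducible Cre under the Pdgfra promoter switches on a red fluorescent reporter. Pdgfra (+) ADSCs are adipose-derived stromal cells from subcutaneous fat, grown in DMEM+10%FBS. In vitro iSEPs are such ADSCs turned into epithelial cells in culture. In vivo iSEPs were cultured from epithelial tissue into which such cells had been turned in the animal, and keratinocytes came from back skin. The last 3 groups grew in a keratinocyte medium without serum, so that medium and cell type cannot be told apart in any comparison with ADSCs. The labels give neither age nor sex, and do not say how the conversion was done or at which passage RNA was taken.

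Stratified epithelia such as epidermis renew from a basal layer that expresses p63, keratins of the basal type and integrins, and whose daughters switch on suprabasal keratins and cornified envelope proteins. Mesenchymal cells lack this programme and instead make fibrillar matrix. From its publication the study is known for conversion with ΔNp63α, GRHL2, TFAP2A and MYC. Wnt, Notch, TGF beta and BMP signals set the balance of growth and differentiation in epidermis, and the inhibitor of DNA binding genes (Id genes) are direct BMP targets.

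By the steps between low FPKM values, each library held 21010000 to 27770000 reads assigned to genes. The first principal component of the genes kept held 70.9% of the variance and set the ADSCs (-118 to -116) far from all other libraries (26 to 48). The second held 10.4% and separated keratinocytes, at 37.6 to 41.3, from 5 iSEP libraries, at -35.4 to -17.7. The in vivo iSEP library of mouse 3 stood apart from those 5, at 2.82. The 38 mesenchymal and fibroblast genes summed to 24745 to 25218 FPKM in ADSCs, 849 to 1192 in keratinocytes and 2539 to 2839 in in vitro iSEPs. In vivo iSEPs had 2298 in mouse 1, 5180 in mouse 2 and 6642 in mouse 3. The 16 basal keratinocyte genes summed to 15673 to 27731 FPKM in iSEPs, 25371 to 27097 in keratinocytes and 607 to 945 in ADSCs. The in vivo library of mouse 3 was the iSEP library nearest to the natural cells in 119 of the 350 higher genes (34%) and in 101 of the 277 lower ones (36.5%). Without it, 712 genes were higher and 487 lower. Leaving out any other single iSEP library gave 361 to 429 higher and 287 to 522 lower genes. The 522 came without the in vivo library of mouse 1. The part of the mesenchymal level of the in vivo library of mouse 3 in these counts was not tested.

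**Figure D1:**
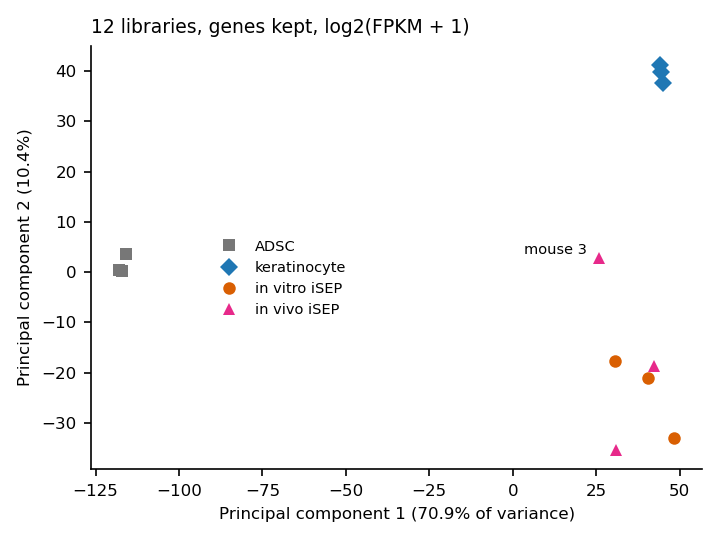
Principal components of log2(FPKM + 1) over the 12364 genes kept, with component 1 (70.9% of variance) on the horizontal and component 2 (10.4%) on the vertical axis. Each point is a library, and 5 of 6 iSEP libraries lie below every natural library on component 2, while in vivo mouse 3 sits at 2.82.

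How far the 2 kinds of cell stand apart was measured with limma in a single fit of 4 group means. The mean of both iSEP groups against the mean of both natural groups gave an adjusted p below 0.05 for 2720 genes higher in iSEPs (22%) and 2338 lower (18.9%), and the median difference over all genes kept was 0.039 on the log2(FPKM + 1) scale. A gene held at the keratinocyte level in iSEPs can pass this contrast, since keratinocytes are averaged with ADSCs. Of the 627 genes 620 passed it, and 620 of the 5058 called genes (12.3%) had libraries that did not overlap. A stricter call asks that each iSEP group differ from each natural group, each with an adjusted p below 0.05 and all 4 differences of 1 sign. It was met by 125 genes higher (1.01%) and 71 lower (0.574%), of which 122 and 70 belong to the 627. It rests on few animals: without keratinocyte mouse 2 it was met by 42 and 19 genes, and without mouse 2 by 6 and 0 (113 and 56 by limma at an unadjusted p below 0.05). Of the 53 separated genes named in the text with this call, 4 kept it in every alternative. Since the same values chose the genes, the p values below describe the fit and are not independent evidence of the separation. The 4 comparisons share samples.

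The pairwise comparisons differ in how much they call. In vitro iSEPs lay above ADSCs in 340 of the 350 higher genes and above keratinocytes in 218, where 32.1% and 5.22% of all genes kept were called. In vivo iSEPs lay above ADSCs in 322 and above keratinocytes in 160, where 27.6% and 3.41% were called. Of the 277 lower genes, in vitro iSEPs lay below ADSCs in 252 (21.7% of all genes) and below keratinocytes in 143 (6.12%). In vivo iSEPs lay below ADSCs in 243 (20%) and below keratinocytes in 96 (4.08%). The step from keratinocytes was thus the one most often missed, and in vivo iSEPs missed it more often than in vitro iSEPs, a difference that was not tested. The rule used these contrasts, and nothing is read from the excess over the background.

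The gap, which is the distance in log2(FPKM + 1) between the nearest iSEP library and the nearest natural library, was small in most of the 627. Its median was 0.15 in the higher genes and 0.095 in the lower ones, and 274 (43.7%) had a gap under 0.1. It reached 1 in 17 higher and 4 lower genes. By group means of log2(FPKM + 1), the natural group nearer to iSEPs was keratinocytes in 292 of the 350 higher genes (83.4%). It was keratinocytes in 227 of the 277 lower genes (81.9%). In 42 of the higher genes all 6 natural libraries were under 1 FPKM, and in 58 of the lower genes all 6 iSEP libraries were, so that these genes passed the filter through their high group alone.

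**Figure D2:**
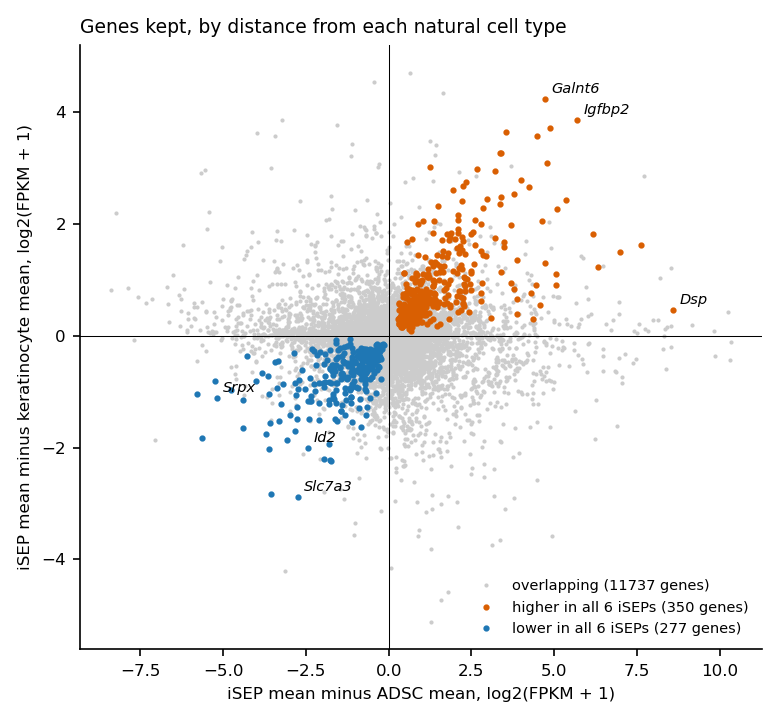
Each point is 1 of the 12364 genes kept. The horizontal axis is the iSEP mean minus the ADSC mean and the vertical axis the iSEP mean minus the keratinocyte mean, both in log2(FPKM + 1), with the 350 higher genes in orange, the 277 lower in blue and the overlapping genes in grey. Igfbp2 and Galnt6 lie far from both axes, whereas Dsp is far from ADSCs and close to keratinocytes.

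The largest gap of all, 2.78, belonged to Igfbp2, which encodes a secreted binding protein of insulin-like growth factors. It was at 2367, 1043 and 1637 FPKM in the in vitro iSEPs of mice 1 to 3, and at 1212, 4048 and 1965 in the in vivo iSEPs. Keratinocytes had 151, 111 and 117, and ADSCs 25.4, 29.5 and 54.5. All 6 iSEP libraries were at or above 1043 FPKM and no natural library was above 151. The iSEP mean was 16.2-fold that of keratinocytes and 56.1-fold that of ADSCs (log2 difference 4.79 ± 0.31, SE, adjusted p = 7.38e-07). Igfbp2 lies on chromosome 1 from 72825387 to 72852471 (mm10, plus strand).

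Galnt6, which encodes an enzyme that starts mucin-type O-glycans, was nearly silent in the natural cells. It was at 8.93, 62.1 and 34 FPKM in in vitro iSEPs and at 33.2, 22.7 and 25.5 in in vivo iSEPs, against 0.724, 0.335 and 0.392 in keratinocytes and 0.013 to 0.078 in ADSCs. The mean was 64.3-fold that of keratinocytes (log2 difference 4.49 ± 0.354, adjusted p = 2.88e-06, chromosome 15, 100689915 to 100729376). Megf6, a gene for a protein with EGF-like repeats, ran from 25.4 to 91.9 FPKM in the 6 iSEPs. It ran from 1.79 to 4.46 in keratinocytes and from 0.279 to 1.45 in ADSCs (log2 difference 4.29 ± 0.316, adjusted p = 1.68e-06).

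Cntf, the gene of ciliary neurotrophic factor, was at 11 to 52.3 FPKM in iSEPs and at 0.921 to 1.61 in all 6 natural libraries. Cntf lies on the minus strand of chromosome 19. The lower coordinate of its listed span (12763528), where the gene ends, is shared with Gm44505. Part of the Cntf reads therefore cannot be assigned with certainty. Gm44505, named after its values were seen, was itself higher in iSEPs by less, at 20.9 to 34.9 against 13.6 to 17.1 FPKM. Slit1, a gene for a secreted guidance ligand of Robo receptors, was at 4.66 to 16.1 FPKM in iSEPs, 0.685 to 0.983 in keratinocytes and 0.187 to 0.227 in ADSCs.

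A group of enzymes for conjugation and hydrolysis followed. Gstm6, a glutathione transferase gene, was at 9.69, 10.8 and 6.81 FPKM in in vitro and at 5.62, 20.5 and 11.6 in in vivo iSEPs, while the natural libraries held 0.61 to 1.25. Chst15, whose product adds sulphate to chondroitin sulphate, was at 9.74 to 16.7 against 0.484 to 2.39. Ces2e and Ces2f, neighbouring carboxylesterase genes on chromosome 8, were at 21.1 to 62.2 and at 15 to 35.6 FPKM in iSEPs. Keratinocytes had 6.32 to 8.81 of Ces2e and 4.19 to 5.87 of Ces2f, and no ADSC library exceeded 0.393. A neighbour named after its values were seen, Ces2b, was also higher in all 6 (0.663 to 9.18 against 0 to 0.635), so that 3 of the 4 carboxylesterase genes kept were apart. Ces2b did not meet the call in all 4 comparisons. Over all genes kept 2.83% were higher, and since this group was put together after values were seen, nothing is read from its count. Copies within the Ces2, Gstm and Serpinb6 families are similar in sequence and may share reads.

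The remaining leading genes included some known from other tissues. Gapdhs, the sperm form of glyceraldehyde-3-phosphate dehydrogenase, was at 2.06 to 17.6 FPKM in iSEPs, at 0.069 to 0.115 in keratinocytes and listed at 0 in ADSCs. Cryaa, the lens crystallin gene, was at 7.4 to 74.3 in iSEPs, at 0.444 to 2.07 in keratinocytes and listed at 0 in ADSCs. The serine protease inhibitor gene Serpinb6c was at 15 to 101 against 2.42 to 5.06 and 0.271 to 0.927. Each of these 12 genes met the call in all 4 comparisons. Igfbp2, Galnt6, Cntf and Gstm6 kept it in every alternative tried, and without mouse 3 it was lost by Slit1 (adjusted p = 0.0594), Ces2e (0.0703) and Cryaa (0.144). Without mouse 2 it was lost by Megf6 (0.0751), Chst15 (0.0676), Gapdhs (0.22, and 0.0573 without mouse 1), Cryaa (0.244), Serpinb6c (0.156), Ces2f (0.137) and Ces2e (0.185). The contrast of these 12 genes kept an adjusted p at or under 0.00892 in every alternative that could be fitted.

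**Figure D3:**
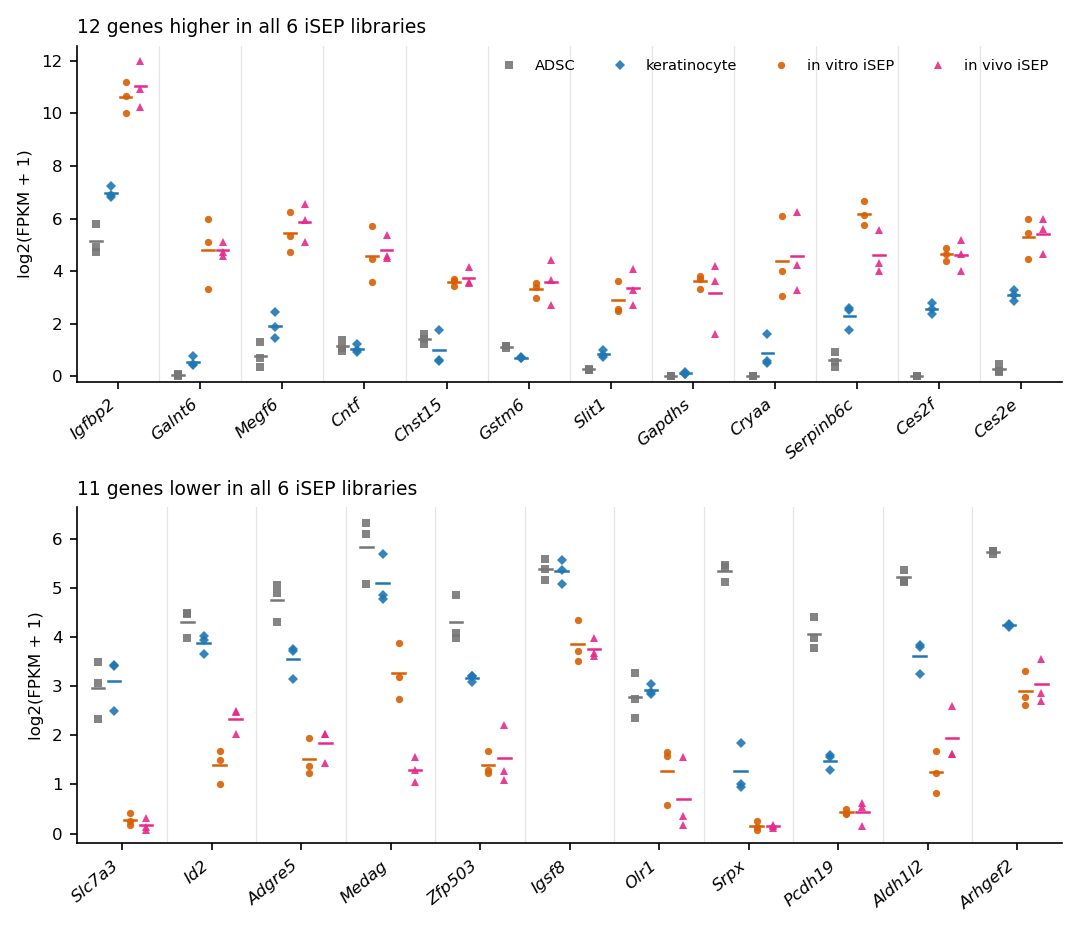
Values of log2(FPKM + 1) for the 12 higher (top) and 11 of the 12 lower (bottom) genes with the largest gaps among those whose higher 6 libraries average at least 5 FPKM. Points are libraries, 3 per group, and short bars are group means. In every gene the 6 iSEP points lie on 1 side of the 6 natural points, as for Igfbp2 with a gap of 2.78 and Slc7a3 with a gap of 1.91.

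Among genes lower in iSEPs the widest gap, 1.91, was that of Slc7a3, which encodes a transporter of cationic amino acids. ADSCs had 4.05, 10.3 and 7.37 FPKM and keratinocytes 4.6, 9.68 and 9.81. In vitro iSEPs had 0.189, 0.34 and 0.125 and in vivo iSEPs 0.252, 0.058 and 0.097. The natural cell types did not differ from each other beyond their spread (log2 0.14, adjusted p = 0.713), and the iSEP mean was 45.4-fold below keratinocytes and 41-fold below ADSCs (log2 difference -2.81 ± 0.216, adjusted p = 2.37e-06). Slc7a3 lies on chromosome X, 101079210 to 101085405, minus strand.

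Id2, a dominant-negative partner of helix-loop-helix factors, came next. It was at 2.21, 1.82 and 1.02 FPKM in in vitro and at 4.61, 3.05 and 4.53 in in vivo iSEPs, against 15.3, 14.4 and 11.5 in keratinocytes and 21.5, 21.1 and 14.7 in ADSCs (log2 difference -2.23 ± 0.154, adjusted p = 1.16e-06, chromosome 12, 25093799 to 25096092). Adgre5, an adhesion receptor gene also known as CD97, was at 1.34 to 3.1 FPKM in iSEPs against 7.83 to 12.6 in keratinocytes and 18.8 to 32.2 in ADSCs. Igsf8, a cell-surface immunoglobulin gene, was at 10.4 to 19.2 against 32.9 to 46.2 and 35 to 47.4. In Igsf8, as in Slc7a3, the natural cell types did not differ beyond their spread (adjusted p = 0.869).

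Srpx and Pcdh19 were highest in ADSCs, lower in keratinocytes and lower again in iSEPs. Srpx, a gene for a secreted sushi-repeat protein, was at 33.7 to 43.2 FPKM in ADSCs, at 0.919 to 2.61 in keratinocytes and at 0.048 to 0.191 in iSEPs. Pcdh19, a protocadherin gene, was at 12.7 to 20.1, 1.45 to 2.01 and 0.114 to 0.538 in the same order. Medag, a gene linked to adipocyte differentiation, was at 33 to 79.4, 26.3 to 50.8 and 1.06 to 13.6, and its levels in the natural cell types overlapped.

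Zfp503, Olr1, Aldh1l2 and Arhgef2 complete the 11 lower genes described. Zfp503, a zinc finger repressor gene, was at 1.13 to 3.65 FPKM in iSEPs and at 7.46 to 27.8 in the natural cells, and Olr1, a scavenger receptor gene, at 0.13 to 2.14 and 4.11 to 8.63. Arhgef2, an activator of RhoA bound to microtubules, was at 5.17 to 10.7 FPKM against 17.5 to 18.2 in keratinocytes and 50.8 to 53 in ADSCs. All 11 were called in all 4 comparisons, and all 11 lost that call without mouse 2, at adjusted p values from 0.0524 (Slc7a3) to 0.336 (Pcdh19). Their contrast kept an adjusted p at or under 0.0476 in every alternative.

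Of the 5 most abundant separated genes on each side, Igfbp2 had the gap of 2.78 and the others had gaps from 0.0019 to 0.42. Eef2, the translation elongation factor gene, was at 1101 to 1553 FPKM in iSEPs and at 778 to 932 in the natural cells (log2 difference 0.62 ± 0.123, adjusted p = 0.00213, and 0.0572 without mouse 2). Itgb1, the beta subunit shared by many integrins, was at 275 to 467 FPKM in iSEPs and at 498 to 891 in the natural cells (log2 difference -0.60, adjusted p = 0.00678, and 0.114 without mouse 2), and its libraries overlapped under median scaling. Nars, Arhgdia and Eif4g2 had gaps of 0.0019, 0.016 and 0.065. All 3 overlapped under median scaling and lost the contrast call without mouse 2 (adjusted p = 0.0744, 0.16 and 0.255). Timp1, the inhibitor of matrix metalloproteinases, was at 491 to 820 FPKM in ADSCs, 40.9 to 45.2 in keratinocytes and 2.56 to 30.2 in iSEPs (log2 difference -3.74 ± 0.5, adjusted p = 0.000146). Timp1 overlaps Syn1 on the opposite strand.

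Promoter sequences were examined because conversion is driven by transcription factors and because members of some pathways lay on the same side. RefSeq promoters of GRCm38.p6 matched 251 of the higher genes, 194 of the lower genes and 8556 of all genes kept, and the 250 bases before the start were searched on both strands. The TFAP2 motif GCCNNNGGC stood in 21.1% of higher, 26.3% of lower and 20.8% of all promoters. The half-site of the p53 family, the family of p63, stood in 5.98%, 5.15% and 5.97%. The MYC E-box CACGTG stood in 7.17%, 7.22% and 8.44%. The GRHL motif AACCGGTT stood in 0 of 251, 0 of 194 and 20 of 8556 promoters. No test was run on these shares. Motifs chosen after values were seen were an ATF4 element, TGATGNAA (0.797%, 2.58% and 1.82%), a SMAD and BMP element, GGCGCC (13.9%, 16% and 17.1%), and an antioxidant element, TGACNNNGC (12.7%, 10.3% and 11.9%).

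A few promoters are printed, 5′ to 3′ on the gene's strand with motif matches in capitals. Igfbp2 is shown as the gene with the widest gap, and none of the motifs searched stands in its window. Foxn1 and Dsp are shown as epidermal genes with matches to both a TFAP2 motif and a p53 family half-site, Id2 as the leading BMP target, with GGCGCC, and Pck2 as the amino acid response gene with the ATF4 element on the opposite strand. A match is a run of letters and not a measured binding site.
Igfbp2 (GRCm38.p6 chr1:72825137-72825386, plus strand): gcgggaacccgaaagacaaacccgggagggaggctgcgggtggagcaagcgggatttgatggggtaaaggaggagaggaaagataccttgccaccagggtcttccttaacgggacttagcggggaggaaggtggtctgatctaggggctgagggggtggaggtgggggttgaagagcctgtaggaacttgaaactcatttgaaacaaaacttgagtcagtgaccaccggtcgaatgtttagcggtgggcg
Foxn1 (GRCm38.p6 chr11:78386609-78386858, minus strand): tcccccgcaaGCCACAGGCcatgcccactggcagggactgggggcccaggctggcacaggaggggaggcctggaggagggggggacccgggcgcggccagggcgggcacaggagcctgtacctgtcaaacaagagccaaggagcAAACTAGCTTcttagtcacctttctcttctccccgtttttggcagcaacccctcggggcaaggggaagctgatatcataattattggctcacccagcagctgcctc
Dsp (GRCm38.p6 chr13:38151044-38151293, plus strand): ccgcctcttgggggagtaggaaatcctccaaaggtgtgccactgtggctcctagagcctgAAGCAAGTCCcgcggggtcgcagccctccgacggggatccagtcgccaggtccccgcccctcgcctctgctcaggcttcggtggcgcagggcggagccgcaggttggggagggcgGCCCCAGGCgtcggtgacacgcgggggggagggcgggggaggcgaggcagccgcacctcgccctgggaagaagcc
Id2 (GRCm38.p6 chr12:25096093-25096342, minus strand): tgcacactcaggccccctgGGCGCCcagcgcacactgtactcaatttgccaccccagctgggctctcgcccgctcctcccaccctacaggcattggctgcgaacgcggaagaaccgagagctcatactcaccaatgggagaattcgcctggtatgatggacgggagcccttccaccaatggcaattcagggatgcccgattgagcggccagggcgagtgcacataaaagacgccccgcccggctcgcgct
Pck2 (GRCm38.p6 chr14:55540016-55540265, plus strand): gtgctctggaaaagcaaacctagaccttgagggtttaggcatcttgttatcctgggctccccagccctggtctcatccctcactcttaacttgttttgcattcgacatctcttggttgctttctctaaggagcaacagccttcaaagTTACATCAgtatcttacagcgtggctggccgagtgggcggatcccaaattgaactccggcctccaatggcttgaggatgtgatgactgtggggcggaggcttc

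Of the 4 known conversion factors, only Trp63, the p63 gene, was separated. It was at 105, 75.2 and 55.8 FPKM in in vitro iSEPs and at 59.3, 156 and 80.7 in in vivo iSEPs, against 35.1, 32.9 and 36.7 in keratinocytes and 0.02 to 0.092 in ADSCs. The iSEP mean was 2.54-fold the keratinocyte mean (log2 contrast 3.77 ± 0.215, adjusted p = 2.84e-07). The highest adjusted p of the 4 pairwise comparisons was 0.0402, and it was 0.0582 with the mouse as replicate block. The call was lost in most fits with fewer libraries, at up to 0.395 without mouse 2. Grhl2 was at 10.6 to 16.7 FPKM in iSEPs, below all keratinocyte libraries (18.1 to 20.4) and above all ADSC libraries (0.006 to 0.007). Tfap2a overlapped keratinocytes, at 13 to 35 against 23 to 25.8. Myc was at 57.9 to 153 in iSEPs, 56.3 to 70 in keratinocytes and 19.9 to 33.2 in ADSCs. Reads of a conversion construct, had one been present, could not be told apart from those of the cell's own gene.

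Of 19 epithelial transcription and splicing factors, 3 were higher in all 6 iSEPs and none was lower, beside Trp63 these being Foxn1 and Esrp2. Over all genes kept 2.83% were higher and 2.24% lower, shares that stand beside this and every list count below. Foxn1, a regulator of keratinocyte differentiation and of hair, was at 3.73, 4.78 and 6.06 FPKM in in vitro and at 4.04, 8.61 and 3.92 in in vivo iSEPs. Keratinocytes had 2.26, 1.61 and 1.27 and ADSCs 0.01 to 0.121 (log2 difference 1.82 ± 0.183, adjusted p = 1.73e-05). Esrp2, an epithelial splicing regulator gene, was at 39.4 to 56.8 FPKM against 26.8 to 34.8 and 1.56 to 2.9. Its contrast is mostly a distance from ADSCs, and its highest adjusted p of the 4 comparisons was 0.0859. Dlx3 and Nfatc1, 2 of 16 hair follicle and sebaceous genes, were at 0.59 to 2.65 against 0.026 to 0.447 and at 4.04 to 6.86 against 2.08 to 3.44 FPKM. Without mouse 2 the contrast of Nfatc1 had an adjusted p of 0.05.

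Of 36 suprabasal and cornified envelope genes, 5 were higher in all 6 iSEPs and none was lower. Over all genes kept 2.83% were higher. None of the 5 met the call in all 4 comparisons. Krt10, the keratin of differentiating layers, was at 92.3, 2.95 and 34.9 FPKM in in vitro and at 5, 21.9 and 3.09 in in vivo iSEPs. All natural libraries were at or under 1 FPKM, with 0.702 to 1 in keratinocytes and 0.447 to 0.556 in ADSCs. The spread over iSEPs was wide, and the contrast (log2 3.08 ± 0.667, adjusted p = 0.00355) stood beside a highest pairwise adjusted p of 0.199, or 0.0418 without the in vitro library of mouse 2. Its partner Krt1 overlapped, at 0.979 to 167 in iSEPs against 0.355 to 1.25 in keratinocytes. Aloxe3 and Alox12b, lipoxygenase genes of the skin barrier that neighbour each other on chromosome 11, were at 0.795 to 4.56 against 0.027 to 0.658 and at 0.695 to 11.5 against 0 to 0.513 FPKM. Without mouse 3 the contrast of Aloxe3 had an adjusted p of 0.056. Lce1a1, with its neighbours Lce1d and Lce1f, was at 0.522 to 17.1 against 0 to 0.283, and its call was lost in 10 alternatives, as without ADSC mouse 1 (adjusted p = 0.0598). Sbsn, the suprabasin gene, was at 311 to 1202 FPKM in iSEPs, 253 to 298 in keratinocytes and 14.4 to 21.6 in ADSCs, and overlapped under quantile normalization.

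Adhesion genes lay on both sides. Dsp, the desmoplakin gene, was at 557, 511 and 647 FPKM in in vitro and at 465, 470 and 460 in in vivo iSEPs, and at 376, 374 and 374 in keratinocytes. Its excess over keratinocytes was 1.38-fold (highest pairwise adjusted p = 0.0891), and it was the only separated gene of 36 junction and polarity genes. Bcam, a laminin receptor gene, was at 40.2 to 127 FPKM in iSEPs against 15.5 to 25.8 in keratinocytes and 3.41 to 6.54 in ADSCs (log2 difference 2.85 ± 0.288, adjusted p = 1.87e-05), while Itgb1, of the same list of 16 basal keratinocyte genes, was lower. Cdh13, the gene of a cadherin without a transmembrane part, was at 4.43 to 42.1 against 1.92 to 2.22 and 0.157 to 0.7, while Pcdh19 and Slit2, of the same list of 16 synaptic and neural adhesion genes, were lower. Of 37 mesenchymal and fibroblast genes, Ly6a alone was separated, and it was higher, at 370 to 1527 FPKM against 128 to 351, with overlap under quantile normalization.

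**Figure D4:**
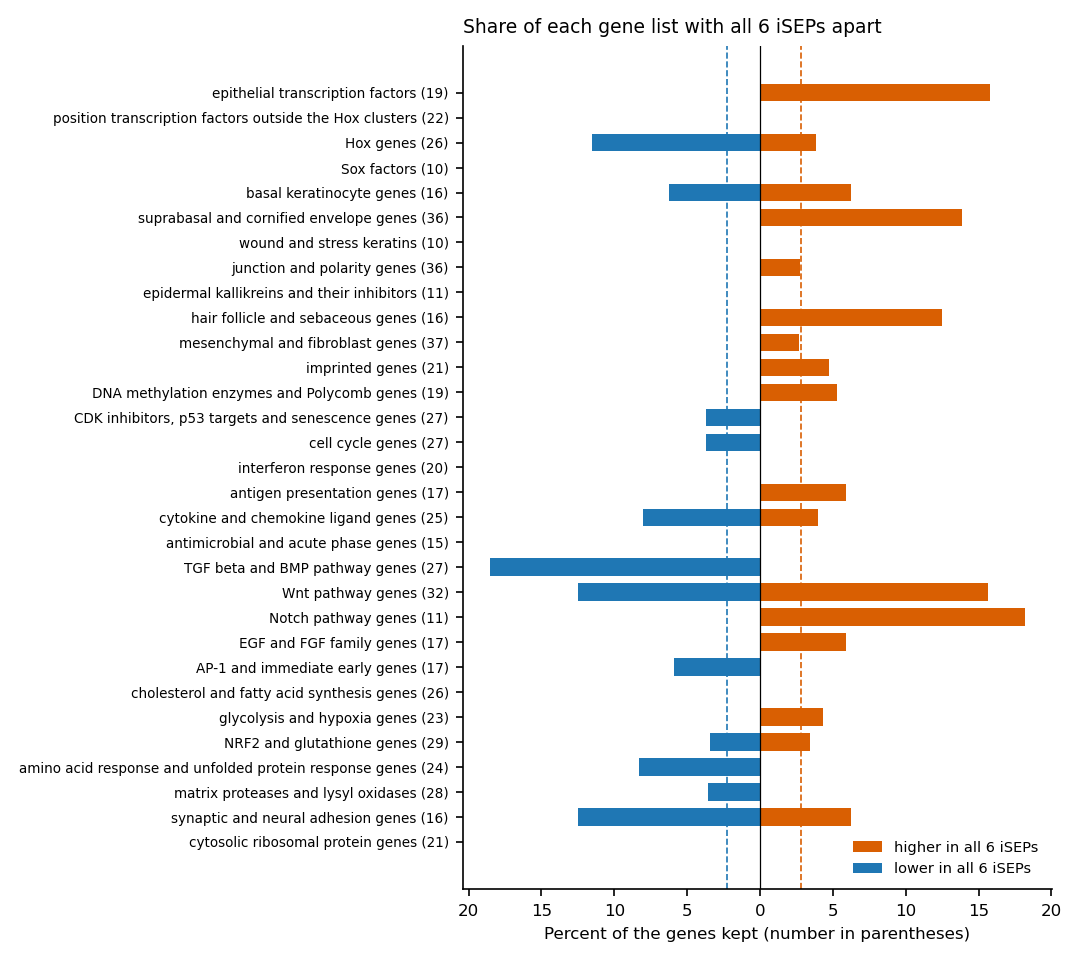
Share of each gene list whose 6 iSEP values lie above (orange, right) or below (blue, left) all 6 natural values, for the 31 lists with at least 10 genes kept. Dashed lines mark the shares over all genes kept, 2.83% higher and 2.24% lower. Bars rest on 1 to 5 genes each, as with 5 lower of 27 TGF beta and BMP genes.

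Of 32 Wnt pathway genes kept, 23 overlapped, 5 were higher, 4 of them ligand genes, and 4 were lower, all receptor or co-receptor genes. Over all genes kept 2.83% were higher and 2.24% lower, and the split between ligand and receptor genes was not tested. Wnt6 was at 10.9, 4.36 and 4.12 FPKM in in vitro and at 2.38, 8.65 and 4.02 in in vivo iSEPs, against 0.29 to 0.74 in keratinocytes and 0 in each ADSC library (log2 difference 2.34 ± 0.269, adjusted p = 4.95e-05). Wnt7a was at 3.24 to 10.5 against 1.42 to 1.95 and 0 to 0.011 (log2 difference 2.15 ± 0.152, adjusted p = 1.32e-06). Wnt3 was the most variable, at 71.5, 5.17 and 20.8 and at 3.15, 19.7 and 0.424, where keratinocytes had 0.011 to 0.149 and ADSCs were listed at 0. Wnt5a, Fzd6, Fzd1, Fzd2 and Lrp6 are named after their values were seen. Wnt5a, a ligand of the pathway branch without beta-catenin, was at 13.1 to 26.1 against 3.13 to 6.93 in keratinocytes and 8.33 to 12.3 in ADSCs.

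Of the receptor genes, Fzd7, with a highest pairwise adjusted p of 0.0391, was at 1.61, 5.69 and 5.55 FPKM in in vitro and at 2.26, 1.96 and 5.22 in in vivo iSEPs, against 8.92 to 13.2 in keratinocytes and 20.4 to 23.1 in ADSCs (log2 difference -1.95 ± 0.258, adjusted p = 0.000137). Its call in all 4 was lost with another pseudocount (highest pairwise adjusted p = 0.051) and with no filter on low values (0.067). It was also lost without any 1 ADSC or keratinocyte library (0.0526 to 0.138) and without mouse 2 (0.444). Fzd2 was at 5.15 to 14.7 against 15 to 19 and 24.9 to 31.9. Fzd1 and the co-receptor gene Lrp6 had gaps of 0.002 and 0.1, and Fzd1 was not called by the contrast (adjusted p = 0.0943). Fzd6, in contrast, was higher, at 60 to 113 FPKM against 46.7 to 54.8 and 1.96 to 2.75. Under median scaling and under quantile normalization Wnt5a, Fzd1, Fzd2 and Lrp6 overlapped, which left Fzd7 as the 1 lower Wnt gene in each, beside 6 and 5 higher ones. The median difference over the 32 genes was 0.003.

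Notch3, a Notch receptor gene, was at 13.4, 13.5 and 15.7 FPKM in in vitro and at 10.7, 13.2 and 13.9 in in vivo iSEPs. Keratinocytes had 5.21, 3.78 and 3.48 and ADSCs 4.48, 2.86 and 2.35, so that the natural cell types overlapped each other and no iSEP library came near them (gap 0.91, log2 difference 1.64 ± 0.139, adjusted p = 4.81e-06). Rfng, the gene of an enzyme that extends sugars on Notch, was at 5.83 to 14.4 against 3.86 to 4.61 FPKM. They were 2 of 11 Notch pathway genes kept, beside 2.83% of all genes kept that were higher, and the other 9 overlapped. The median difference over the 11 was 1.46, by the contrast that averages keratinocytes with ADSCs. A gene held at the keratinocyte level in iSEPs can pass that contrast.

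**Figure D5:**
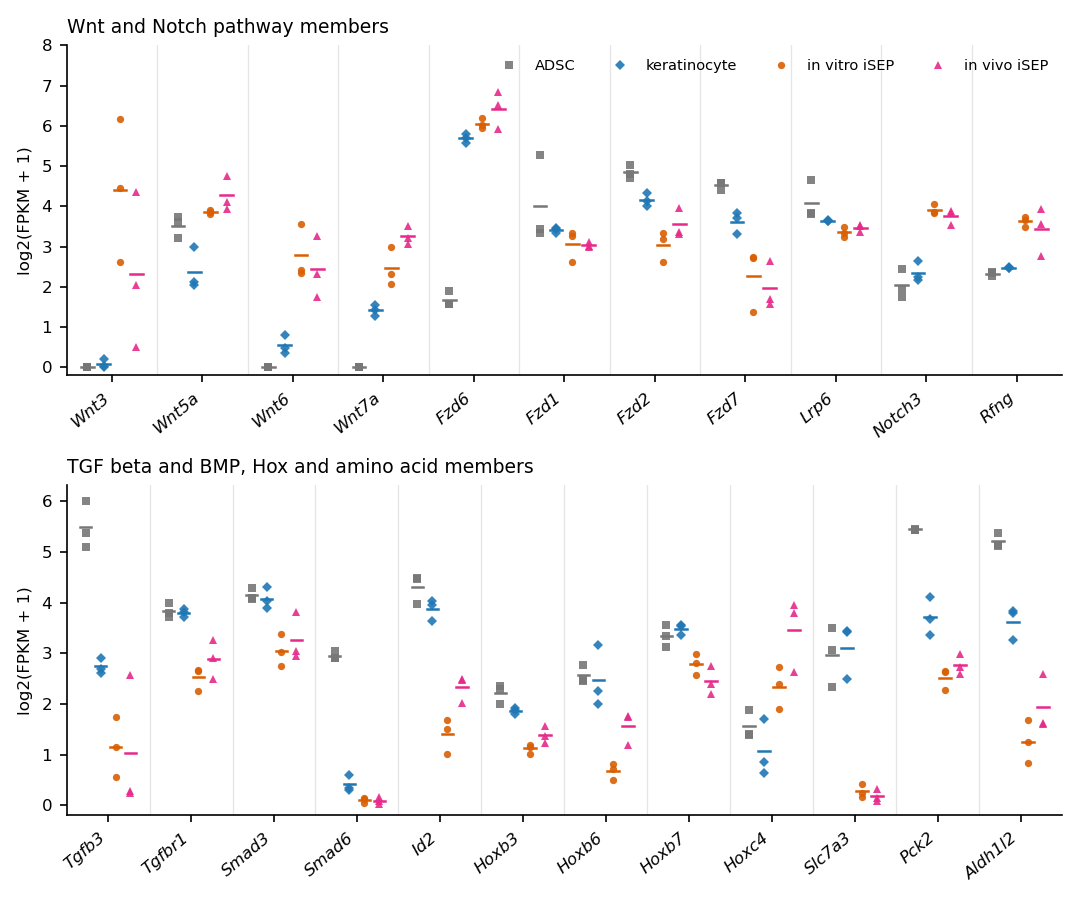
Values of log2(FPKM + 1) for separated members of the Wnt and Notch pathways (top) and of the TGF beta and BMP, Hox and amino acid groups (bottom). Points are libraries, 3 per group, and short bars are group means. Wnt3, Wnt6 and Wnt7a lie higher in iSEPs and Fzd7 lower, and Tgfbr1, at 3.79 to 8.58 FPKM against 12.1 to 15, lies lower in iSEPs than in both natural cell types.

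The TGF beta and BMP list gave 5 lower genes of 27 and no higher one, with a median of -0.82 over the list. Over all genes kept 2.24% were lower and 2.83% higher. The call in all 4 comparisons was met by 2 of the 5 lower genes, Tgfbr1 and Id2, and in the other direction by Tgfbr2, the type II receptor gene, whose libraries overlapped. Tgfbr2, named after its values were seen, was at 67.8 to 126 FPKM in iSEPs against 33.3 to 44.1 in keratinocytes and 38.6 to 74.6 in ADSCs (log2 difference 0.97 ± 0.188, adjusted p = 0.00178), and its call in all 4 was lost under both other scalings (highest pairwise adjusted p = 0.104 and 0.0823), with the mouse as replicate block (0.0627) and without mouse 2 (0.386). By the contrast alone, which a gene held at the keratinocyte level in iSEPs can pass, 4 genes of the list were called higher and 17 lower. Over all genes kept the contrast called 22% higher and 18.9% lower. The ligand gene Tgfb3, named after its values were seen, was at 33.2 to 63.7 FPKM in ADSCs, 5.13 to 6.5 in keratinocytes and 0.176 to 4.93 in iSEPs. Tgfbr1, the type I receptor gene, was at 5.28, 5.36 and 3.79 in in vitro and at 8.58, 4.59 and 6.46 in in vivo iSEPs, against 13.7, 13 and 12.1 in keratinocytes and 15, 12.8 and 12.1 in ADSCs (log2 difference -1.11 ± 0.135, adjusted p = 7.42e-05). The natural cell types did not differ in Tgfbr1 beyond their spread (adjusted p = 0.898), and the iSEP mean was 2.28-fold below keratinocytes. Without mouse 2 the call in all 4 was lost by Tgfbr1 (highest pairwise adjusted p = 0.391) and by Id2 (0.184). Tgfbr1 also lost it without mouse 3 (0.0743), without the in vivo library of mouse 2 (0.0555) and without any 1 keratinocyte library (0.0517 to 0.0691).

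Smad3, which carries the signal to the nucleus, was at 5.71 to 13.1 FPKM against 13.8 to 18.8 in the natural cells. Smad6, an inhibitor of BMP signalling, was at 0.022 to 0.12 against 0.224 to 0.515 in keratinocytes and 6.46 to 7.2 in ADSCs, levels at which the step below keratinocytes rests on few reads. Id2 is described above, and its relatives Id1 and Id3 overlapped, at 1.25 to 10.4 against 3.79 to 26.6 and at 10.6 to 48.5 against 33.7 to 119 FPKM. Under median scaling and under quantile normalization Tgfb3 and Smad3 overlapped and 3 lower genes were left.

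Hox genes, which record position along the body, gave 3 lower genes close to each other and 1 higher gene of 26. The shares over all genes kept were 2.24% lower and 2.83% higher. Of the 26, Hoxb7 alone met the call in all 4 comparisons. Hoxb6 was at 0.414, 0.76 and 0.642 FPKM in in vitro and at 1.27, 2.36 and 2.4 in in vivo iSEPs, against 3.02 to 7.93 in keratinocytes and 4.47 to 5.84 in ADSCs. Hoxb3 was at 1.02 to 1.95 against 2.46 to 4.09, and Hoxb7 at 3.55 to 6.91 against 7.76 to 10.7. The 3 lie within chromosome 11 from 96286646 to 96347930. Hoxb3 overlapped under quantile normalization. Hoxc4, on chromosome 15, was higher by a gap of 0.0093 and overlapped under median scaling. None of 22 other position factor genes and none of 10 Sox genes was separated.

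Among growth factor genes, Igf2 was at 7.42, 3.87 and 2.85 FPKM in in vitro and at 0.706, 2.5 and 0.881 in in vivo iSEPs, against 0.429 to 0.695 in keratinocytes and 0.158 to 0.242 in ADSCs, with overlap under median scaling. It overlaps the antisense gene Igf2os. Fgfr3, a growth factor receptor gene, was at 65.8, 24.8 and 50.6 and at 15.1, 25.7 and 3.46 FPKM against 2.23 to 3.21 and 0.17 to 0.322. Of 25 cytokine and chemokine ligand genes, 1 was higher and 2 were lower, beside 2.83% and 2.24% of all genes kept. Il18, an interleukin that keratinocytes store, was at 22.2 to 190 against 6.47 to 17 and 3.21 to 4.01. Il6 and Cxcl5 were lower, at 0 to 0.32 against 0.556 to 12.9 FPKM and at 0.32 to 2.67 against 2.79 to 13.4. Egr2, an immediate early gene, was at 0.129 to 0.885 against 1.35 to 4.27 in keratinocytes and 5.95 to 19.9 in ADSCs.

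H2-Eb1, a class II histocompatibility gene, and Cd68, a lysosomal glycoprotein gene used as a macrophage marker, were both higher. H2-Eb1 was at 2.32, 8.07 and 3.96 FPKM in in vitro and at 3.69, 1.77 and 2.59 in in vivo iSEPs, and at 0.151 to 0.369 in all natural libraries (log2 difference 1.80 ± 0.22, adjusted p = 7.73e-05). Cd68 was at 8.09 to 22.3 against 2.29 to 3.69 and 0.751 to 3.05. Over 13 immune markers the sum was 11.6 to 23.9 FPKM in iSEPs, 6.22 to 11.3 in keratinocytes and 9.57 to 69.3 in ADSCs, and Cd68 made up most of the iSEP sum. Cd3e, Cd3g, Cd207, Adgre1 and Tyrobp were listed at 0 in every iSEP library, and Ptprc was at 0.034 and Cd74 at 0.161 FPKM or less. Cd14 was at 0.964 to 3.1 FPKM in iSEPs, Csf1r at 0.021 to 1 and Lyz2 at 0.063 to 0.54, and Itgax and Ms4a1 were at 0.02 or less. H2-Eb1 was 1 of 17 antigen presentation genes kept.

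Genes of amino acid handling lay on both sides, and those named here without a list were chosen after their values were seen. Of 24 amino acid response and unfolded protein response genes, 2 were lower and none higher, beside 2.24% and 2.83% of all genes kept. Pck2, the mitochondrial phosphoenolpyruvate carboxykinase gene, was at 5.21, 5.27 and 3.84 and at 5.05, 5.64 and 6.96 FPKM in iSEPs, against 9.22 to 16.2 in keratinocytes and 42.2 to 43 in ADSCs (log2 difference -1.93 ± 0.132, adjusted p = 1.08e-06). Aldh1l2, of mitochondrial folate metabolism, was at 0.772 to 5.04 against 8.55 to 13.2 and 33.9 to 40.2. Stc2, a secreted glycoprotein gene, was at 0.06 to 0.579 against 2.43 to 7.42 and 3.11 to 5.64, and Atf5 at 29.1 to 53.8 against 55.9 to 222, with overlap under median scaling. Atf4 itself, the factor of this response, overlapped (156 to 221 FPKM in iSEPs, 133 to 284 in the natural cells).

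On the higher side, the neutral amino acid transporter genes Slc38a2 and Slc7a8 were at 155 to 321 against 75.2 to 110 FPKM and at 3.2 to 14.7 against 0.215 to 2.52. Cbs, which makes cystathionine from homocysteine, was at 2.13 to 20.2 against 0.295 to 1.2, and Suox, the sulphite oxidase gene, at 26.4 to 48.3 against 16.9 to 18.6 in keratinocytes and 5.71 to 7.35 in ADSCs. Aldh6a1 and Bckdha, of valine and branched-chain breakdown, were at 13.2 to 24 against 3.94 to 9.24 and at 27.8 to 36 against 11.9 to 20.7. G6pdx, the first enzyme of the pentose phosphate path, was at 76.9 to 134 against 27.9 to 54.5, and its retrocopy G6pd2, which may share its reads, at 5.63 to 8.25 against 1.63 to 3.32. Egln3, an oxygen sensor gene, was at 8.29 to 59.2 against 1.93 to 4.75 and the only separated gene of 23 glycolysis and hypoxia genes.

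Subunits of the mitochondrial respiratory chain and ATP synthase, a group put together after values were seen, gave 8 higher and 1 lower gene of 79, with a median of 0.25 against 0.039 over all genes. Over all genes kept 2.83% were higher and 2.24% lower, and since this group and those of the next paragraph were put together after values were seen, nothing is read from the difference. Atp5d was at 215 to 258 FPKM against 131 to 163 (log2 difference 0.63 ± 0.0789, adjusted p = 9.44e-05), and Cox4i1 was at 383 to 454 against 260 to 351. Cox7a1, the heart and muscle form of a subunit, was the lower gene, at 0.092 to 0.349 against 0.369 to 3.97. Cox4i1, Ndufb4, Ndufa10, Cox7a2 and Cox7a1 overlapped under median scaling.

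Of 17 subunits of the endoplasmic reticulum translocon and oligosaccharyltransferase, also grouped after values were seen, 4 were lower and none higher, none was called in all 4 comparisons, and the median was -0.27. Sec61a1 was at 69.6 to 94.4 FPKM against 101 to 135, Stt3a at 79.5 to 108 against 113 to 202, Ssr1 at 13.8 to 22 against 22.7 to 38.5, and Srprb at 18 to 26.6 against 27.5 to 38.9. Stt3a overlapped under median scaling. Of 46 sugar nucleotide transporters and polysaccharide enzymes 10 were lower and 2 higher, among them Has2, the hyaluronan synthase gene, at 0.062 to 0.754 against 1.23 to 1.57 in keratinocytes and 17.6 to 22.8 in ADSCs. Csgalnact1 and Chst2, of chondroitin sulphate and of sulphated glycans, were at 0.168 to 0.926 against 1.91 to 2.48 and 76.4 to 95.7, and at 0.037 to 0.6 against 1.53 to 2.32 and 3.73 to 5.03. These groups were not tested as groups.

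Since 5.07% of all genes kept were separated in either direction, nothing is read from a list of 26 genes or fewer that held none. Many lists held no separated gene. They were wound and stress keratins (10 kept), epidermal kallikreins and their inhibitors (11), interferon response (20), cholesterol and fatty acid synthesis (26), antimicrobial and acute phase (15), adipose lineage (9) and cytosolic ribosomal protein genes (21), and the smaller lists of oral and esophageal epithelium (3), pluripotency (4), germline (2), melanocyte (2), endothelial and pericyte (4), muscle (2) and neural and glial (2) genes. No erythroid gene was kept. Lists with 1 or 2 further separated genes were EGF and FGF family (Fgfr3 of 17), imprinted genes (Igf2 of 21), DNA methylation and Polycomb genes (Jarid2 of 19, at 4.74 to 9.59 against 1.81 to 4.61), cell cycle genes (E2f1 of 27, at 5.66 to 10.4 against 10.7 to 12.6), NRF2 and glutathione genes (Gsta3 higher and Mgst1 lower of 29) and synaptic and neural adhesion genes (Cdh13 higher, Pcdh19 and Slit2 lower, of 16). Slit2 overlapped under median scaling, and the contrast lost its call for E2f1 without mouse 3 (adjusted p = 0.0517) and for Mgst1 without mouse 2 (0.0596).

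The 2 kinds of iSEP were then compared within the 627 genes. The rule put all 6 iSEP values of a gene on 1 side, which limits how far the 2 kinds can differ, so the count is a description. Over all genes kept, 201 (1.63%) differed between in vivo and in vitro iSEPs, 84 higher in in vivo iSEPs (0.679%) and 117 lower (0.946%), or 128 with the mouse as replicate block. Of the 627 it was 9 (1.44%). Lncenc1, a long non-coding RNA gene, was at 18.9, 41 and 62.1 FPKM in in vitro and at 3.93, 10.8 and 5.78 in in vivo iSEPs, and at 0.197 to 2.63 in the natural cells (log2 -2.35 ± 0.436, SE, adjusted p = 0.0275, and 0.00694 with the block). Gpr132, a G protein-coupled receptor gene, was at 0.546 to 1.19 and 2.32 to 3, against 0 to 0.45 (log2 0.98, adjusted p = 0.0126). Medag, Il18 and Sbsn were lower in in vivo iSEPs and Stk39 higher, and with the block none of these 4 kept an adjusted p below 0.05.

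Keratinocytes and ADSCs differed in 298 of the 627 genes (47.5%), against 6616 of all genes kept (53.5%, with 32.8% higher and 20.7% lower in keratinocytes). In the higher genes keratinocytes lay above ADSCs in 154 (44%), below in 7, and without a called difference in 189. In the lower genes they lay below in 131 (47.3%), above in 6, and without a called difference in 140. Near the border of the rule, Elmod3 and Itpr2 were inside by gaps of 0.00031 and 0.00046 on the higher side, and Pkp3 and Bcr outside by -0.00073 and -0.0008. On the lower side Ankrd50 and Parva were inside by 0.00057 and 0.00059, while Mir7040 and Trpc6, at 0 in all iSEPs and all keratinocytes, had a gap of 0.

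Some of the 627 genes were neighbours. With the lower listed coordinate of each gene within 100 kb of the next, 64 higher genes lay in 29 runs and 19 lower genes in 9 runs. The longest was the run of Fam212a, Rnf123, Mst1, Apeh and 4930447F24Rik on chromosome 9 between 107984224 and 108133718. The listed transcript overlapped that of another listed gene in 58 of the higher genes (16.6%) and 45 of the lower, against 21.8% of all genes kept. Among named genes these include Adgre5, Chst15, Hoxb6, Esrp2 and Eef2, and where the strand is not resolved such pairs can share reads. The median transcript length was 2391 bases in higher, 3376 in lower and 2693 in all genes kept. Lower genes made up 17 of 384 genes kept on chromosome X (4.43%) and 2 of 617 on chromosome 17 (0.324%), beside 2.24% over all chromosomes.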

How the data were processed

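RNA-seq of 12 cultures (4 groups of 3) was deposited as FPKM per gene. Per the file headers, the authors counted reads over exons on the transcript strand with HOMER, and per the submitters' processing notes the tools also included FastQC 0.11.5 and STAR 2.5.1b, with build mm10. No source used here says whether the library kit keeps strand. Of 24537 genes, those at 1 FPKM or more in at least 3 libraries were kept, and 3 columns of no sample were not used. Depth was recovered from the steps of low values (all whole at a tolerance of 0.15 reads). Since FPKM are not counts, log2(FPKM + 1) was fitted with limma 3.58.1 in R 4.3.3 (4 group means, trend), two-sided, with Benjamini-Hochberg adjustment over all genes kept and a threshold of 0.05. Fold changes on this scale understate those of low genes, and ratios printed as fold are of mean FPKM. The fit was tested on simulated data.

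The members and lists were chosen with earlier results of these data known. Named genes were the 12 on each side with the largest gap among those whose higher libraries average at least 5 FPKM, the 5 most abundant on each side, up to 4 per list by gap, the 4 conversion factors, the genes at the border of the rule and members differing between the 2 kinds of iSEP. Of the lower 12, 11 are given and 1 is not reported here. Others were named after their values were seen. Mouse numbers mark shared animals per the labels. Deviations of same-numbered samples correlated at -0.178 to 0.21 (median 0.045, 18 pairs). Alternatives were another pseudocount, filters, scalings, the mouse as block, a model of 2 groups and leaving out libraries or mice.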

Additional observations from a re-analysis of the deposited data

Results flagged for a closer look

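Of the 627 separated genes, 9 differed between in vivo and in vitro iSEPs by limma's test with an adjusted p below 0.05. They are listed because the distance from the natural cells then differs between the 2 kinds of iSEP. Lower in in vivo iSEPs were Lncenc1 (log2 -2.35, adjusted p = 0.0275), Il18 (-2.06, 0.0458), Medag (-1.96, 0.0299) and Sbsn (-1.16, 0.0358). Higher were Stk39 (1.41, 0.0427), Gpr132 (0.98, 0.0126), Mex3b (0.91, 0.0264), Ppm1l (0.64, 0.0398) and Jade1 (0.55, 0.028). Medag, already low in in vitro iSEPs at 5.64 to 13.6 FPKM, was at 1.06 to 1.95 in in vivo iSEPs, and no library of either kind overlapped the other. With the mouse as replicate block Lncenc1 (0.00694), Gpr132 (0.0307) and Mex3b (0.0436) kept an adjusted p below 0.05, and Il18 (0.0755), Medag (0.0657), Stk39 (0.056), Sbsn (0.0708), Ppm1l (0.067) and Jade1 (0.0558) did not. Without the in vitro library of mouse 3 none of the 9 was called. Without mouse 2 none of those kept was called, and Gpr132 was not among the genes kept.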

How the results depend on the processing

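No named gene called by the contrast reversed its direction in any alternative that could be fitted for it. For separated genes the rule itself fixed this direction in every alternative without rescaled values, so that it is no support for them. Of the 114 named members called by the contrast, 83 kept that call in every alternative that kept the gene. Of 53 called in all 4 comparisons, 4 kept that call throughout. In a model of 2 groups, whose spread includes the distance between keratinocytes and ADSCs, 448 genes were called higher and 347 lower. Of the named members 21 were then not called, at adjusted p from 0.0525 to 0.125, among them Trp63 (0.0546), Dsp (0.112), Il6 (0.0782), Fzd6 (0.0829), Lrp6 (0.11), Smad6 (0.0887) and Slit2 (0.101). At an adjusted p below 0.01, 1752 genes were higher. Requiring a gap of at least 1 left 17 higher and 4 lower genes. With in vitro iSEPs only, 1185 and 1027 genes did not overlap, and with in vivo iSEPs only 628 and 537. Median scaling kept 303 of the higher and 191 of the lower members apart and quantile normalization 305 and 189. Leaving out 1 library gave 2219 to 3078 genes called higher and 1565 to 2628 lower, and leaving out 1 mouse 1220 to 2310 and 790 to 1640. Calls in all 4 ran from 42 to 247 higher and 19 to 143 lower by library, and from 6 to 106 and 0 to 81 by mouse. The extremes were the fits without keratinocyte mouse 2 and in vivo mouse 3, and those without mouse 2 and mouse 1. Without mouse 2, limma gave 113 higher and 56 lower at an unadjusted p below 0.05. Separated genes ran from 361 to 712 higher and 272 to 522 lower by library, and from 442 to 1057 and 377 to 768 by mouse. Between the 2 kinds of iSEP, 53 to 348 genes were called by library and 1 to 153 by mouse, and 128 with the replicate block. Keratinocytes and ADSCs differed in 5081 to 7072 and 3274 to 5631. The cause was not tested. The block took the call in all 4 from Trp63 (0.0582), Gldc (0.0539) and Tgfbr2 (0.0627), and gave 112 higher and 60 lower such calls. With 3 animals and FPKM, small gaps rest on single libraries.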
